A study of Mus musculus with 12 samples.

Results

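Hearts lacking both Trex1 and STING were compared with hearts that had Trex1 and 1 functional STING allele. The comparison was defined by the genotype labels alone: the 2 arrays labelled Trex-/- STING-/-, here called double deficient, were set against the 2 arrays labelled Trex+/+ STING+/-, here called STING heterozygous. These are 4 of the 12 heart arrays of the series, which holds 6 genotype groups of 2 arrays each. All mice were of the strain C57BL6/129Sv and untreated, and neither their age nor their sex was given in the labels. Trex-/- and STING-/- denote lack of each gene in the whole animal, so the heart was not the only organ without them. Total RNA of hearts was hybridised to 1-colour Illumina bead arrays. Because the labels do not say outright that the 2 arrays of a group came from separate mice, p-values measure only the spread between arrays of the same group. That spread is pooled per feature over the 6 groups of the series, not over the compared groups alone. The question was how far the profile of a Trex1-deficient heart without STING lay from that of a Trex1-intact heart.

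Trex1 is a DNA exonuclease that degrades DNA in the cytosol. When such DNA is left undegraded, the sensor cGAS produces a cyclic dinucleotide that activates STING, an adaptor of the endoplasmic reticulum. STING then recruits the kinase TBK1 and the transcription factor IRF3, which switch on type I interferon and, through it, the interferon-stimulated genes. Mice without Trex1 are known for inflammation of the heart.

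Normalised signals are on a log2 scale throughout, and differences are log2 differences with their standard error (SE) from 1 limma fit over the 12 arrays. The fit covered 15561 features, which are genes or, where no symbol was annotated, single probes. A feature was called when its Benjamini-Hochberg adjusted p over all features was under 0.05. The 2 arrays per group limit the precision: the median SE of a difference was 0.26 and the median 95% interval reached 0.59 to each side.

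The arrays were alike in brightness, with 38.3% to 44.7% of probes detected. The descriptions attached to the samples named another STING genotype than the genotype label on 7 of the 12 arrays. Among them were both STING heterozygous arrays, described as +/+ for replicate 1 and -/- for replicate 2, and both arrays labelled Trex-/- STING+/+, described as -/-. Both double deficient arrays carried the same genotype in all labels, and the genotype label, which the titles repeat, was used throughout. Ventricular muscle genes were near the top of the scale on all 4 arrays: the myosin light chain Myl2 read 15.52 and 15.48 in STING heterozygous and 15.62 and 15.57 in double deficient hearts. All 4 arrays lacked the female transcript Xist, at 4.43 and 4.40 against 4.39 and 4.50, whereas both arrays labelled Trex+/+ STING+/+ carried it, at 9.60 and 9.24. Of the arrays labelled Trex-/- STING+/+, replicate 1 lacked Xist and replicate 2 carried it, at 4.47 and 8.93. Comparisons of any of these groups with Trex+/+ STING+/+ hearts were thus not matched in Xist.

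Trex1 itself was read by 3 probes, of which 2 were detected. The brighter of them read 8.16 and 7.85 in STING heterozygous and 6.80 and 6.87 in double deficient hearts. The groups did not overlap, and the difference was -1.17 ± 0.29 (SE, n = 2 and 2, limma adjusted p = 0.361). The other detected probe read 7.34 and 6.99 against 5.38 and 5.68, a difference of -1.63 ± 0.34. A residual signal thus stayed in double deficient hearts, and whether the probes lie within the deleted part was not tested. The Sting1 probe was near background in both groups, at 4.79 and 5.24 against 4.72 and 5.02, so it did not separate the STING genotypes here (-0.15 ± 0.29).

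Across all genes, few features separated double deficient from STING heterozygous hearts at the adjusted threshold. Of 15561 features, 1 was called, the natriuretic peptide gene Nppa, which was higher in double deficient hearts. That is 0.00643% of the features, and 0 features were called lower. At an unadjusted limma p under 0.05, 1445 features (9.29%) differed in either direction, of which 649 (4.17%) were higher and 796 (5.12%) lower. Were there no differences, a share near 0.05 would be expected at this limit. The median difference over all features was -0.03, and the 5th to 95th percentiles ran from -0.62 to 0.74. Between Trex+/+ STING+/+ and STING heterozygous hearts, both Trex1-intact, these percentiles ran from -0.49 to 0.53. The median absolute difference was 0.18 there and 0.24 between double deficient and STING heterozygous hearts. An absolute difference of at least 1 was seen in 503 features (3.23%).

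The scale of the disease was given by a second comparison that uses none of these 4 arrays: the 2 arrays labelled Trex-/- STING+/+ against the 2 labelled Trex+/+ STING+/+, here called the reference comparison. On replicate 2 of the former the brighter Trex1 probe read 7.84 and the other detected probe 6.76, both within the range of the Trex1-intact arrays. Replicate 1 read 7.01 and 5.60. The label of replicate 2 is thus not borne out by either detected Trex1 probe. In the reference comparison 3378 features (21.7%) were called, 1833 higher (11.8%) and 1545 lower (9.93%), and 2981 features (19.2%) had an absolute difference of at least 1. With replicate 2 of the arrays labelled Trex-/- STING+/+ left out, 1503 were called higher and 1204 lower. Over the 15561 features, the differences of the double deficient and of the reference comparison had a Pearson correlation of -0.0677, given as a description across genes, which are not independent.

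Whether the 2 comparisons differed was tested in the same fit as the difference between them, here called the interaction, and 1852 features (11.9%) were called. Since the double deficient comparison changes the STING genotype as well as Trex1, this does not isolate Trex1 loss in hearts without STING. In 1134 of them (7.29% of all features) the double deficient comparison gave the lower value, and in 718 (4.61%) the higher. Of the 1852, 1132 were genes on the higher side of the reference comparison that lay lower in the double deficient comparison, 718 were genes on its lower side that lay higher, and 2 went the other way. The interaction contains the reference difference with its sign reversed, so this split largely follows from its construction and is not separate evidence of a return. The median absolute difference over all features was 0.42 in the reference and 0.24 in the double deficient comparison, so in the plot of one against the other most points lie near the origin and the cloud is wider along the horizontal axis.

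**Figure D1:**
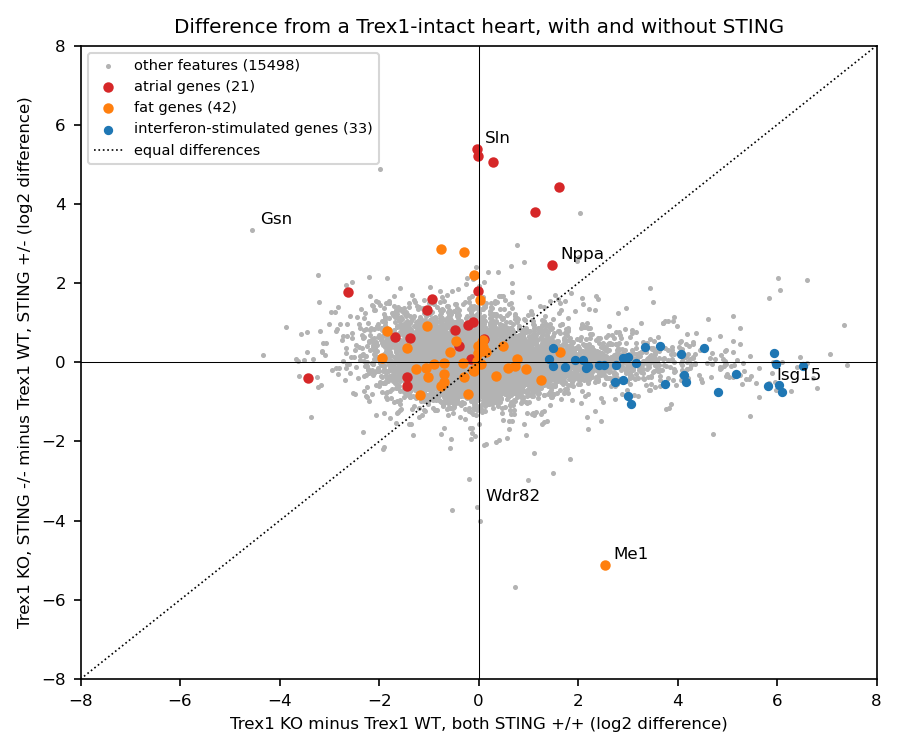
Each point is 1 of the 15561 features: the horizontal axis is the log2 difference between arrays labelled Trex1-deficient and Trex1-intact, both STING +/+, and the vertical axis the log2 difference between double deficient and STING heterozygous hearts. The interferon-stimulated genes spread to the right along the zero line, while atrial genes (21, red) and fat genes (42, orange) include the points that stand above it, and the dotted line marks equal differences.

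Distances between whole profiles were looked at as well. The root mean square difference over all features between a double deficient and a STING heterozygous array was 0.412 to 0.703 over the 4 pairs. The 2 STING heterozygous arrays differed from each other by 0.505 and the 2 double deficient arrays by 0.502. Between double deficient arrays and those labelled Trex-/- STING+/+ the distance was 1.01 to 1.20. The arrays labelled Trex-/- STING+/- stood at 0.517 to 0.745 from the STING heterozygous arrays, a range that overlaps that of the double deficient arrays. Yet their mean signal over the interferon-stimulated genes was 9.94 and 9.03, against 6.69 and 6.72 in double deficient hearts. The distance from STING heterozygous hearts thus did little to tell these 2 groups apart. Against the Trex+/+ STING+/+ arrays the double deficient arrays stood at 0.394 to 0.604, and against the Trex+/+ STING-/- arrays at 0.328 to 0.531. Double deficient replicate 2 was the closer of the 2 to the Trex+/+ STING-/- arrays.

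The genes that the reference comparison called with a difference of at least 1 were followed into the double deficient hearts, leaving out atrial and fat genes (1 of the higher and 13 of the lower genes). The 1435 genes higher in the reference comparison had a median reference difference of 1.82. In the double deficient comparison their median difference was -0.012, with 5th to 95th percentiles of -0.58 to 0.68, and 0 of them were called. At an unadjusted p under 0.05, 37 were higher (2.58%) and 42 lower (2.93%), against 4.17% and 5.12% of all features. Their mean signal was 6.48 and 6.35 in STING heterozygous and 6.29 and 6.54 in double deficient hearts, against 8.46 and 8.66 on the arrays labelled Trex-/- STING+/+. The 2 compared groups overlapped, and both lay about 2 log2 units below the latter.

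A difference that misses the threshold is not shown to be 0, so the intervals were read as well. The 95% interval included 0 for 1356 of the 1435 genes (94.5%), against 90.7% of all features. For 1048 genes (73.0%) the interval excluded 50% of the gene's own reference difference. The reference differences are those of genes chosen for passing a threshold, and such values run high on average.

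The 968 genes lower in the reference comparison had a median reference difference of -1.38. Here the median in the double deficient comparison was 0.024, with 5th to 95th percentiles of -0.77 to 0.88, and 0 genes were called. Both directions were seen at an unadjusted p under 0.05, with 86 genes higher (8.88%) and 76 lower (7.85%), against 4.17% and 5.12% of all features. Their mean signal was 8.90 and 9.07 in STING heterozygous and 9.11 and 8.93 in double deficient hearts, again overlapping, against 7.77 and 7.44 on the arrays labelled Trex-/- STING+/+. For these genes the interval included 0 in 806 (83.3%) and excluded 50% of the reference difference in 553 (57.1%). Both shares were smaller than among the higher genes.

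The interferon-stimulated genes were nearly all higher in the reference comparison. Their products block viral replication, translation and assembly, and they are the classic readout of type I interferon. The 150 bases before the start are shown for 5 of the 6 listed interferon-stimulated genes with the largest reference difference, because these are the list members for which the return could be read over the widest range. They are RefSeq sequences of build GRCm38.p6, written 5' to 3' on the gene's strand. Capitals mark the letters GAAA, any 2 bases and GAAA again, searched on both strands with overlaps allowed, so that TTTC, any 2 bases and TTTC is the same motif on the other strand. This is the core of the interferon-stimulated response element, to which the interferon-activated factor ISGF3 and the IRF proteins bind.
Isg15: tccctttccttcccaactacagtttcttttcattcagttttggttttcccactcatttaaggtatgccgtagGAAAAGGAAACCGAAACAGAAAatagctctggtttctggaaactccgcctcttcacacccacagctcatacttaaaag
Ifit3: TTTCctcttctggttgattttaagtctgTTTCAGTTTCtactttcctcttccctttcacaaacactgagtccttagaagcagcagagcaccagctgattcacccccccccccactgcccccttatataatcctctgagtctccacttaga
Apol9a: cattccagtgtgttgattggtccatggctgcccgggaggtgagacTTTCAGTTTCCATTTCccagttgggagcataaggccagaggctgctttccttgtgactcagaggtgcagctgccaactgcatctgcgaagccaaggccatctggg
Apol9b: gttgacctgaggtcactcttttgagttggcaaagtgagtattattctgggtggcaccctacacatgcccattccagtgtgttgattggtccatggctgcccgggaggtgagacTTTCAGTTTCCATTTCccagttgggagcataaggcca
Irf7: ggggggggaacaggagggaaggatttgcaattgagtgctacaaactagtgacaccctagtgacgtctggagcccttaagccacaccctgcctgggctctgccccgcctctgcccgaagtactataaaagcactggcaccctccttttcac

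These stretches lie at chr4:156200819-156200968, minus strand for Isg15, chr19:34583379-34583528, plus strand for Ifit3, chr15:77411035-77411184, minus strand for Apol9a, chr15:77728922-77729071, plus strand for Apol9b and chr7:141266425-141266574, minus strand for Irf7. Within 250 bases before the start, Isg15 held 3 matches, Ifit3, Apol9a and Apol9b 2 each, and Irf7 0. The first Ifit3 match begins outside the stretch shown. The letters were found in 11 of the 24 tested interferon-stimulated genes that have a promoter sequence in the table (45.8%), in 329 of 9746 tested features with one (3.38%) and in 978 of 32851 promoter windows in all (2.98%). A match is a description and not a site, and 0 matches says only that these letters are not in this window.

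In the double deficient hearts these genes read at or slightly below the level of STING heterozygous hearts. Isg15, a ubiquitin-like modifier, read 7.39 and 7.29 in STING heterozygous and 6.60 and 6.86 in double deficient hearts. The arrays labelled Trex-/- STING+/+ stood at 13.78 and 12.36, far above both groups. Double deficient hearts were the lower of the 2 compared groups without overlap, but the difference was within its error (-0.61 ± 0.49, adjusted p = 0.683).

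Usp18, the protease that removes Isg15 from proteins, read 7.47 and 7.53 against 6.83 and 6.65. The groups did not overlap, and the difference was -0.76 ± 0.36 (adjusted p = 0.552). The same gene was 6.10 ± 0.36 higher in the reference comparison, and the interaction for Usp18 was -6.86 (adjusted p = 3.21e-04). Irf7, the factor that amplifies interferon production, read 5.85 and 5.13 against 5.09 and 4.71, with double deficient hearts lower and a difference of -0.58 ± 0.49 (adjusted p = 0.691). Ifit3, which binds foreign RNA with its family, read 8.62 and 8.13 against 8.26 and 8.39, with overlapping groups (-0.047 ± 0.43). Apol9a was not well above background in either compared group nor in Trex+/+ STING+/+ hearts, and it was at least 60.2-fold higher on the arrays labelled Trex-/- STING+/+. Apol9a and Apol9b are near-identical copies, and their probes may share signal.

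Of 40 listed interferon-stimulated genes 33 were tested, and 0 were called in the double deficient comparison. Their median difference was -0.089 (-0.14 without double deficient replicate 2), against -0.03 for all features, and single differences ranged from -1.06 to 0.41. In 9 of the 33 both double deficient arrays were below both STING heterozygous arrays (25.7% of all features were), and in 4 both were above (20.1%). Oas2, which makes the messenger that activates RNase L, had the lowest value, reading 6.40 and 6.56 against 5.55 and 5.29 (-1.06 ± 0.21, adjusted p = 0.291). Oas1g (-0.75 ± 0.32, adjusted p = 0.530) and Mx2 were the other 2 with an unadjusted p under 0.05, both lower. Mx2, an antiviral GTPase, was not well above background in double deficient hearts and at least 1.48-fold lower there (adjusted p = 0.508). In the reference comparison 32 of the 33 were called higher (11.8% of all features were), with a median of 3.07, and only Eif2ak2 missed the threshold (adjusted p = 0.0941). The interaction called 30 of the 33 lower, against 7.29% of all features. The list was chosen with these results known and is not independent evidence.

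**Figure D2:**
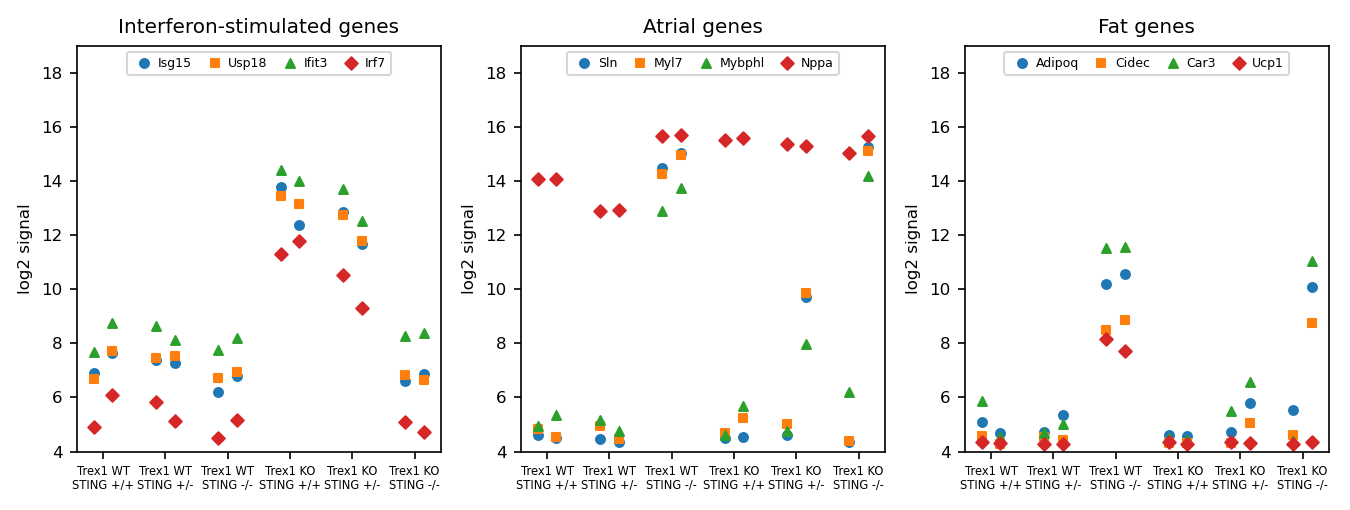
Log2 signal on each of the 12 arrays, by genotype, for 4 interferon-stimulated genes, 4 atrial genes and 4 fat genes; each point is 1 array. Isg15, Usp18, Ifit3 and Irf7 were high in the 2 groups of Trex1-deficient hearts with STING and low in the other 4 groups; Sln, Myl7 and Mybphl were high on both Trex1-intact STING -/- arrays, on double deficient replicate 2 and, less so, on 1 Trex1-deficient STING +/- array; Adipoq, Cidec and Car3 were highest on both Trex1-intact STING -/- arrays and double deficient replicate 2.

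The interferon-inducible GTPases, which attack the vacuoles of intracellular pathogens, behaved alike: 0 of 13 tested members were called, with a median of -0.14 (-0.050 without double deficient replicate 2). Of these, 10 were called higher in the reference comparison (11.8% of all features were) and 9 lower by the interaction (7.29% of all features were). Igtp read 8.43 and 8.51 in STING heterozygous and 7.97 and 7.85 in double deficient hearts. Its groups did not overlap, at a difference of -0.56 ± 0.39. In a bulk sample such as this, fewer cells of a type and less RNA per cell cannot be told apart.

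Antigen presentation genes were level between the compared groups. The class I list holds the MHC heavy chains, the peptide transporter and the immunoproteasome, and 0 of its 21 members were called, at a median of -0.10. The heavy chain H2-K1 read 8.56 and 9.09 against 8.24 and 9.09, with overlapping groups and a difference of -0.16 ± 0.38. In the reference comparison 18 of the 21 were called higher (11.8% of all features were), and 16 were called lower by the interaction (7.29% of all features were). Among the 12 class II genes the median was 0.084, with 0 called, and -0.29 without double deficient replicate 2. Cd74, the invariant chain of class II molecules, read 11.01 and 10.48 against 10.37 and 11.10, and its difference was -0.011 ± 0.49. All 12 had been called higher in the reference comparison, at a median of 3.98, and the interaction called 10 of them lower.

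Genes of inflammatory cells and their signals followed. Of 31 chemokine and cytokine genes 0 were called, with a median of -0.066 (-0.22 without double deficient replicate 2). The reference comparison called 21 of them higher and 2 lower, beside 11.8% and 9.93% of all features. Cxcl9, a chemokine that draws activated T cells, read 7.80 and 7.59 against 7.31 and 6.70, lower without overlap in double deficient hearts (-0.69 ± 0.38, adjusted p = 0.579). Ccl5 read 5.15 and 5.11 against 4.71 and 5.83, with overlap. Cxcl10 was not well above background in either compared group nor in Trex+/+ STING+/+ hearts, and was at least 42.9-fold higher on the arrays labelled Trex-/- STING+/+.

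Macrophage and monocyte markers had a median of 0.14 over 21 members and T and NK cell markers one of 0.032 over 14, with 0 called in each list. Without double deficient replicate 2 these medians turned to -0.24 and -0.030. Adgre1, which encodes the macrophage antigen F4/80, read 8.13 and 7.96 against 7.57 and 8.22. Its groups overlapped (-0.15 ± 0.38), although it had been 3.04 higher in the reference comparison. Lgals3, the lectin galectin-3 of activated macrophages, read 7.90 and 7.32 in STING heterozygous hearts against 7.37 and 11.48, so that 1 double deficient array was high and the other was not (1.81 ± 0.99). The T cell receptor subunit Cd3e was not well above background on any of the 4 arrays. Complement, with 9 members tested, had a median of 0.17, which turned to -0.10 without double deficient replicate 2. C2, which forms the complement convertase, read 5.88 and 6.24 in STING heterozygous hearts against 5.10 and 8.33, with overlap. C4b read 6.15 and 6.47 against 6.14 and 7.77, also with overlap. The reference comparison called 15 of the 21 macrophage genes, 10 of the 14 T and NK genes and 7 of the 9 complement genes higher, beside 11.8% of all features. It also called 3 macrophage genes lower, beside 9.93% of all features. The interaction called 13 macrophage, 8 T and NK and 6 complement genes lower, beside 7.29% of all features. It called 2 macrophage genes higher, beside 4.61% of all features.

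The cytosolic DNA sensing list had a median of -0.13 over 18 members, with 0 called. Cgas, the sensor upstream of STING, read 5.56 and 6.26 against 5.65 and 5.95, overlapping and at a difference of -0.11 ± 0.29. Ifi211, a member of the IFI200 family of DNA-binding proteins, read 5.41 and 5.86 against 4.78 and 4.66 and was not well above background in double deficient hearts, at least 1.60-fold lower (adjusted p = 0.479). Tbk1 and Irf3, the kinase and factor downstream of STING, differed by 0.14 ± 0.23 and -0.084 ± 0.26. Of 16 cell cycle genes 13 were below 0, at a median of -0.28, with 0 called, whereas 15 had been called higher in the reference comparison (11.8% of all features were).

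**Figure D3:**
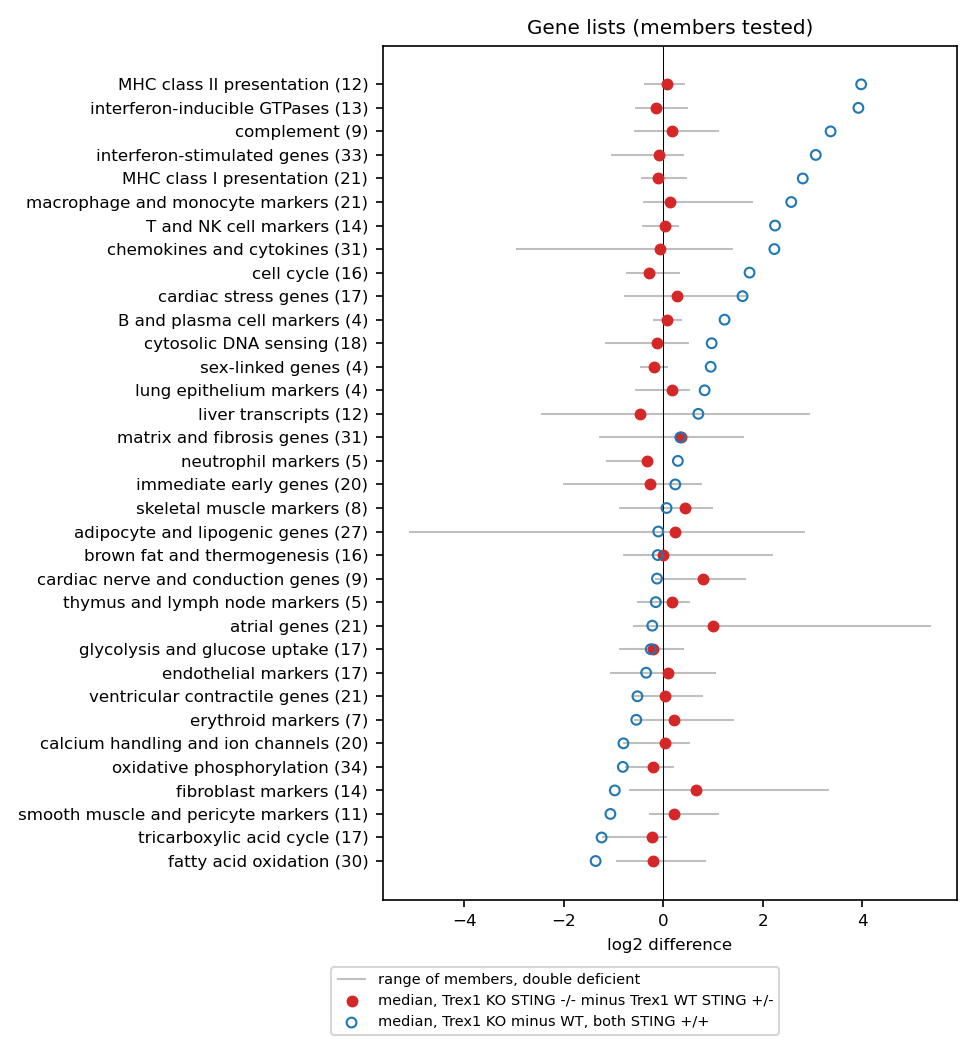
For each of the 34 gene lists (number of members tested in brackets), the red point is the median log2 difference of double deficient against STING heterozygous hearts, the grey line the range of its members, and the open blue circle the median of the reference comparison. The red medians stay within 0.5 of 0 except for atrial genes (1.01), cardiac nerve and conduction genes (0.81) and fibroblast markers (0.67), while the blue medians run from -1.36 to 3.98.

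Energy metabolism genes, which fuel the beating heart mainly through fatty acids, had medians slightly below 0. These medians moved towards 0 without double deficient replicate 2. Of 30 fatty acid oxidation genes 0 were called, and their median was -0.20, or -0.028 without that array. Their mean signal overlapped between the groups, at 11.68 and 11.92 against 11.85 and 11.51. Acadm, the medium-chain acyl-CoA dehydrogenase, read 14.92 and 15.18 against 15.22 and 15.02. Its groups overlapped (0.068 ± 0.24), and the interaction for Acadm was 1.60 (adjusted p = 0.0157). Ppara, the nuclear receptor that drives this pathway, read 6.81 and 7.59 against 7.62 and 7.05, with overlap and a difference of 0.14 ± 0.34. Of the 30, 19 had been called lower in the reference comparison (9.93% of all features were), where the median was -1.36. The interaction called 8 higher (4.61% of all features were).

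Oxidative phosphorylation had a median of -0.21 over 34 members, of which 29 were below 0 and 0 were called. In 19 of them both double deficient arrays were below both STING heterozygous arrays, a position held by 25.7% of all features. The mean signal of the list was 13.49 and 13.41 in STING heterozygous and 13.35 and 13.13 in double deficient hearts. The tricarboxylic acid cycle had a median of -0.23 over 17 members, 16 of them below 0, again with 0 called. In 9 of these 17 both double deficient arrays were below both STING heterozygous arrays. Mdh2, mitochondrial malate dehydrogenase, read 13.46 and 13.24 against 12.70 and 12.42, lower without overlap (-0.79 ± 0.21, adjusted p = 0.361). Citrate synthase, Cs, read 13.22 and 13.02 against 13.06 and 12.70, with overlap (-0.24 ± 0.20). Both lists had been lower in the reference comparison, with 19 of the 34 and 15 of the 17 called (9.93% of all features were) at medians of -0.81 and -1.24. The interaction called 5 and 4 higher, beside 4.61% of all features. Without double deficient replicate 2 the medians of the double deficient comparison were -0.13 for oxidative phosphorylation and -0.082 for the tricarboxylic acid cycle. Over the tricarboxylic acid cycle genes the mean signal was 12.44 and 12.41 in STING heterozygous and 12.26 and 12.00 in double deficient hearts, without overlap. Trex+/+ STING-/- hearts stood at 12.03 and 12.10, overlapping the double deficient hearts. Glycolysis genes had a median of -0.21 over 17 members with 0 called, or -0.11 without double deficient replicate 2. Pkm, pyruvate kinase, read 13.09 and 12.15 against 11.88 and 11.57 (-0.89 ± 0.33, adjusted p = 0.491).

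Contractile and ion handling genes were level. Over 21 ventricular contractile genes the median was 0.028 with 0 called, and 0.054 without double deficient replicate 2. Myh6, the main adult cardiac myosin heavy chain of the mouse, read 14.83 and 14.72 against 15.14 and 14.86, the double deficient arrays being the higher (0.22 ± 0.24). In the reference comparison Myh6 was lower (-1.20, adjusted p = 0.00629), and the interaction for it was 1.42 (adjusted p = 0.0255). Tnni3, cardiac troponin I, read 12.60 and 12.45 against 11.96 and 11.85, lower without overlap (-0.62 ± 0.22, adjusted p = 0.466). Over 20 genes of calcium handling and ion channels the median was 0.029, with 0 called, and 0.13 without double deficient replicate 2. Ryr2, the calcium release channel of the sarcoplasmic reticulum, read 12.40 and 13.12 against 13.08 and 12.99, with overlap, and the interaction for Ryr2 was 1.84 (adjusted p = 0.0140). Of these 20, 8 had been called lower in the reference comparison (9.93% of all features were) and 6 were called higher by the interaction (4.61% of all features were).

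Genes of cardiac stress were mixed. Nmrk2, a kinase of NAD synthesis that is induced in failing hearts, was 5.34 higher in the reference comparison and read 7.69 and 7.03 against 7.07 and 7.20 here, overlapping (-0.22 ± 0.43). Rcan1, an inhibitor and target of calcineurin, read 10.72 and 10.78 against 9.86 and 10.05, lower without overlap (-0.79 ± 0.23, adjusted p = 0.410). Others lay above the STING heterozygous level. Nppb, which encodes brain natriuretic peptide, read 12.01 and 12.22 against 13.51 and 13.90, higher without overlap (1.59 ± 0.41, adjusted p = 0.361). The stretch-responsive Ankrd1 read 13.66 and 13.83 against 14.50 and 14.93, also without overlap (0.97 ± 0.32, adjusted p = 0.464). The interaction did not call Nppb (-0.82, adjusted p = 0.389) or Ankrd1 (-0.13, adjusted p = 0.878). Both genes spanned a wide range among Trex+/+ STING+/+ hearts, at 13.44 and 12.34 for Nppb and 14.36 and 13.65 for Ankrd1. Over the 17 members the median was 0.29, and in 10 both double deficient arrays were above both STING heterozygous arrays (20.1% of all features), with 0 called.

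Connective tissue genes stood above the STING heterozygous level more often than not. Of 31 matrix and fibrosis genes 28 were above 0, at a median of 0.36, and in 16 the double deficient arrays were higher without overlap (20.1% of all features were), with 0 called. Among 14 fibroblast markers 12 were above 0, at a median of 0.67. Pdgfra, the growth factor receptor of cardiac fibroblasts, read 8.30 and 8.59 against 9.16 and 9.77 (1.02 ± 0.25, adjusted p = 0.361). Col14a1, a fibril-associated collagen, read 5.03 and 5.16 against 5.97 and 7.25 (1.51 ± 0.39, adjusted p = 0.361). In both genes double deficient replicate 2 was the highest of the 4 arrays. Without that array the median was 0.018 for the fibroblast markers and 0.25 for the matrix genes. The control group also mattered: Trex+/+ STING+/+ hearts read 9.32 and 8.91 for Pdgfra and 6.63 and 6.43 for Col14a1, within or near the range of the double deficient arrays. Acta2, smooth muscle actin, read 12.14 and 12.39 against 13.30 and 13.44, with both double deficient arrays alike (1.10 ± 0.22, adjusted p = 0.291), and Trex+/+ STING+/+ hearts stood between them at 13.02 and 12.99. Over the 11 smooth muscle and pericyte markers the median was 0.22, and 0.64 without double deficient replicate 2.

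Nppa was the single called gene. It encodes atrial natriuretic peptide, a hormone made by atrial muscle and, in stress, by ventricular muscle. STING heterozygous arrays read 12.87 and 12.94 and double deficient arrays 15.03 and 15.68. The groups did not overlap, and the difference was 2.45 ± 0.22 (limma adjusted p = 0.00859). Nppa ranked 374 and 355 by signal among the 15561 features of the STING heterozygous arrays, and 52 and 11 on the double deficient arrays, where it neared the top of the scale of 15.83, so the size of the difference may be compressed.

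The STING heterozygous hearts had the lowest Nppa of all groups. Trex+/+ STING+/+ hearts read 14.08 on both arrays, and the arrays labelled Trex-/- STING+/+ read 15.52 and 15.57. Trex+/+ STING-/- hearts read 15.68 and 15.71. Against Trex+/+ STING+/+ hearts the double deficient hearts were 1.27 ± 0.22 higher, which did not pass (adjusted p = 0.202). Without double deficient replicate 2 the difference from STING heterozygous hearts was 2.13 (adjusted p = 0.0615), and without STING heterozygous replicate 2 it missed the threshold as well (adjusted p = 0.158). The gene passed in 11 of 16 alternative settings, with differences from 1.27 to 2.77.

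The atrial genes are reported apart because they separated the 2 double deficient arrays. Sln, which encodes the atrial calcium pump regulator sarcolipin, read 4.47 and 4.36 in STING heterozygous hearts, 4.34 on double deficient replicate 1 and 15.27 on replicate 2. Myl7, the atrial regulatory myosin light chain, read 4.94 and 4.47, then 4.40 and 15.10. Only double deficient replicate 2 was high, and the other 3 arrays were near background. Mybphl, a myosin-binding protein of the atrium, read 5.16 and 4.77 against 6.20 and 14.16, and Myl4, the atrial essential light chain, 7.81 and 7.59 against 7.29 and 15.70. Bmp10, a growth factor of the right atrium, read 4.58 and 4.82 against 4.36 and 8.65. None of these passed the test: the differences were 5.39 ± 2.70 for Sln, 5.05 ± 2.64 for Myl7 and 3.79 ± 2.03 for Myl4, with adjusted p-values of 0.563, 0.570 and 0.578. Sln and Myl7 were not well above background on either STING heterozygous array and were detected on 1 of the 2 double deficient arrays. The mean of the double deficient group thus describes neither of its 2 arrays for these genes.

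Over the 21 atrial genes tested the median was 1.01, against -0.03 for all features. Without double deficient replicate 2 it was 0.12, and with replicate 2 as the single double deficient array it was 1.91. The mean signal of the list was 7.00 and 6.92 in STING heterozygous hearts, 7.15 on double deficient replicate 1 and 10.24 on replicate 2. Both Trex+/+ STING-/- arrays were also high, at 9.64 and 10.11. The amount of atrial tissue in each sample is not stated, and its part in these values was not tested.

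In 11 of the 21 atrial genes both double deficient arrays were above both STING heterozygous arrays, against 20.1% of all features. Besides Nppa they include transcription factors of the atrium and genes whose 2 double deficient arrays lay closer together. Tbx5 read 5.75 and 6.11 against 6.65 and 7.84 (1.32 ± 0.38, adjusted p = 0.400). Nr2f2, which specifies atrial identity, read 5.40 and 4.72 against 5.66 and 6.47 (1.01 ± 0.30, adjusted p = 0.432). In each, replicate 2 was the highest array, and replicate 1 exceeded the STING heterozygous arrays by less. Potassium channel genes of the list went both ways, with Kcnj3 at 0.64 ± 0.34 and Kcna5 at -0.60 ± 0.29.

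The fat genes, likewise reported apart, comprise adipocyte, lipogenic and brown fat genes, 42 of which were tested. Their median was 0.0065 and 0 were called, and over the 27 adipocyte and lipogenic genes alone the median turned from 0.23 to -0.062 without double deficient replicate 2. Of the 42, 10 were higher and 9 lower without overlap, positions held by 20.1% and 25.7% of all features. Adipoq, the adipocyte hormone adiponectin, read 4.74 and 5.34 in STING heterozygous hearts, 5.55 on double deficient replicate 1 and 10.09 on replicate 2. Cidec, a protein of lipid droplets, read 4.52 and 4.44, then 4.63 and 8.74, and Car3, a carbonic anhydrase abundant in fat, 4.69 and 5.03, then 4.40 and 11.03. As with the atrial genes, only replicate 2 was high. The differences were 2.78 ± 1.07 for Adipoq, 2.20 ± 0.95 for Cidec and 2.86 ± 1.54 for Car3, and 0 of the 3 passed (adjusted p-values of 0.505, 0.529 and 0.578). Cidec was not well above background on either STING heterozygous array and was detected on 1 double deficient array, so its group mean describes neither double deficient array.

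Brown fat was not seen in these 4 hearts: the uncoupling protein gene Ucp1 read 4.28 and 4.30 against 4.28 and 4.34, not well above background on any of them. Genes of fat handling that heart muscle also uses did not share the pattern. Lpl, lipoprotein lipase, read 15.14 and 15.69 against 15.83 and 15.72 (0.36 ± 0.40). Plin5, a coat protein of lipid droplets in oxidative tissue, read 11.32 and 11.28 against 10.80 and 10.18, lower without overlap (-0.81 ± 0.31, adjusted p = 0.492). Me1, malic enzyme, stood apart in the other direction, at 9.83 and 9.90 against 4.82 and 4.68. Me1 was not well above background in double deficient hearts, so that it was at least 30.0-fold lower there, without passing the test (-5.11 ± 1.19, adjusted p = 0.325). It was also near background in Trex+/+ STING+/+ hearts, at 4.74 and 4.69, and read 9.80 and 4.71 on the 2 arrays labelled Trex-/- STING+/+.

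Double deficient replicate 2 stood apart beyond the listed atrial and fat genes. It exceeded replicate 1 by at least 1 in 505 features and was below it by as much in 38. Taken as the single double deficient array, replicate 2 gave 133 calls (0.855%), 125 of them higher (0.803%) and 8 lower (0.0514%). Of the 133, 8 were atrial and 5 adipocyte genes. None of the 33 interferon-stimulated genes was among them. Replicate 1 taken alone gave 0 calls, also 0 for Nppa, at an adjusted p of 0.0615. The gap also held Hamp, which encodes the iron hormone hepcidin, at 4.74 and 12.66 on the 2 double deficient arrays, and Mlana, a gene of pigment cells, at 4.68 and 9.54. Like the atrial list, both were also high on the Trex+/+ STING-/- arrays, at 10.78 and 12.64 for Hamp and 8.39 and 9.13 for Mlana. The hearts of the 2 STING heterozygous arrays also differed, with replicate 2 above replicate 1 by at least 1 in 474 features and below it in 218.

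The largest single differences outside those lists did not pass the test either. Among the 10 highest features with both double deficient arrays above both STING heterozygous arrays, Gsn, which encodes the actin-severing protein gelsolin, read 5.87 and 10.32 against 10.96 and 11.90 (3.33 ± 1.24, adjusted p = 0.491). Its STING heterozygous replicate 1 was the low array, and without it the difference was 1.11. The other Gsn probe gave 0.72 ± 0.56. Gdf10, a growth factor of the BMP family, read 5.96 and 6.21 against 7.67 and 8.75 (2.13 ± 0.43, adjusted p = 0.291). Npy1r, a receptor of neuropeptide Y, read 4.89 and 5.70 against 6.44 and 7.98 (1.91 ± 0.43, adjusted p = 0.325). Gdf10 and Npy1r were as high in Trex+/+ STING-/- hearts, at 8.57 and 8.77 and at 8.06 and 7.91.

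Among the 10 lowest, Wdr82, a subunit of a histone methyltransferase complex, read 8.26 and 8.18 against 4.54 and 4.58, where this probe was not well above background, at least 9.62-fold lower (-3.67 ± 0.87, adjusted p = 0.340). The other 3 Wdr82 probes did not show the drop, with differences of 0.93 ± 0.55, 0.57 ± 0.32 and 0.025 ± 0.31, so the value belongs to 1 probe and not to the gene as a whole. That probe was also near background on 1 Trex+/+ STING+/+ array, at 4.50, and not on the other, at 7.31. In Trex+/+ STING-/- hearts it read 7.74 and 7.80. With only the compared arrays in the fit the Wdr82 probe was called lower. Il15, a cytokine of NK cells and memory T cells, read 10.53 and 10.04 against 7.37 and 7.27 (-2.96 ± 1.32, adjusted p = 0.535), and Trex+/+ STING+/+ hearts read 7.27 and 10.87. Of the other Il15 probes, 2 were kept and gave -3.10 ± 1.22 and -0.85 ± 0.53. On both the Wdr82 and the Il15 probe the 2 arrays of Trex+/+ STING+/+ hearts lay at different levels. Bckdhb, a subunit of the enzyme that breaks down branched-chain keto acids, was more even within groups, reading 10.56 and 10.46 against 8.52 and 8.15 (-2.17 ± 0.28, adjusted p = 0.0838), with Trex+/+ STING+/+ hearts at 9.00 and 8.74. Parp3, a DNA repair enzyme, read 7.65 and 7.56 against 5.48 and 5.17 (-2.28 ± 0.41, adjusted p = 0.291).

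Bckdhb, Parp3, Wdr82 and Me1 are all on chromosome 9, which also holds Trex1. The chromosome was looked at after these values were seen. It carries 688 of the 12060 features with an annotated chromosome (5.70%). At an unadjusted p under 0.001 (0.334% of all 15561 features) the double deficient comparison held 38 such features, of which 12 (31.6%) were on chromosome 9, 11 of them lower. Among the 100 measured genes on the side of Trex1 towards the start of the chromosome, 14 had an unadjusted p under 0.01 and 12 of these were lower, against 2 of the 99 on its other side and 17 of 488 on the rest of the chromosome (3.48%). Over all features with a chromosome the share was 2.12%. The 2 Trex1-intact groups also differed on chromosome 9: Trex+/+ STING+/+ against STING heterozygous hearts, which shares the STING heterozygous arrays, held 13 such features at an unadjusted p under 0.001, 7 of them on chromosome 9 (53.8%). At an unadjusted p under 0.01 chromosome 9 held 15 of 74 there (20.3%), against 34 of 256 in the double deficient comparison (13.3%). Double deficient against Trex+/+ STING+/+ hearts held 10 of 156 on it (6.41%). In the reference comparison chromosome 9 held 84 of 1389 features with an unadjusted p under 0.001 (6.05%), a limit that 10.9% of all features passed there.

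Ube2cbp, Pik3r4, Rpl29 and Nmnat3 were other chromosome 9 genes of this kind, with differences of -2.08 ± 0.29, -1.56 ± 0.23, -1.49 ± 0.29 and -1.26 ± 0.24. Pik3r4 is a regulatory subunit of the class III phosphoinositide 3-kinase, and Rpl29 a protein of the large ribosomal subunit. Tpbg, which encodes a membrane glycoprotein, went the other way at 1.66 ± 0.33. The adjusted p-values of these 5 ran from 0.102 to 0.291. Ube2cbp and Pik3r4 were not well above background in double deficient hearts, at least 3.70-fold and 1.92-fold lower. Both were near background in Trex+/+ STING+/+ hearts as well, at 5.06 and 4.67 for Ube2cbp and 4.60 and 4.84 for Pik3r4, and Nmnat3 read 5.48 and 5.00 there against 6.51 and 6.27 in STING heterozygous hearts. The Trex+/+ STING-/- arrays lay between those 2 groups, at 6.09 and 6.21 for Ube2cbp, 5.31 and 5.70 for Pik3r4 and 5.79 and 5.74 for Nmnat3. For these 3 genes Trex+/+ STING+/+ hearts thus lay below both other Trex1-intact groups. The arrays labelled Trex-/- STING+/- were low too, at 4.56 and 4.68 for Ube2cbp, 4.56 and 4.29 for Pik3r4 and 4.85 and 4.57 for Nmnat3. Against STING heterozygous hearts they differed by -2.22, -1.47 and -1.68 (limma adjusted p = 0.0051, 0.015 and 0.0088). The cause of these levels was not tested. The other Nmnat3 probe gave -0.42 ± 0.25, and the other Rpl29 probe -5.49 ± 1.45.

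**Figure D4:**
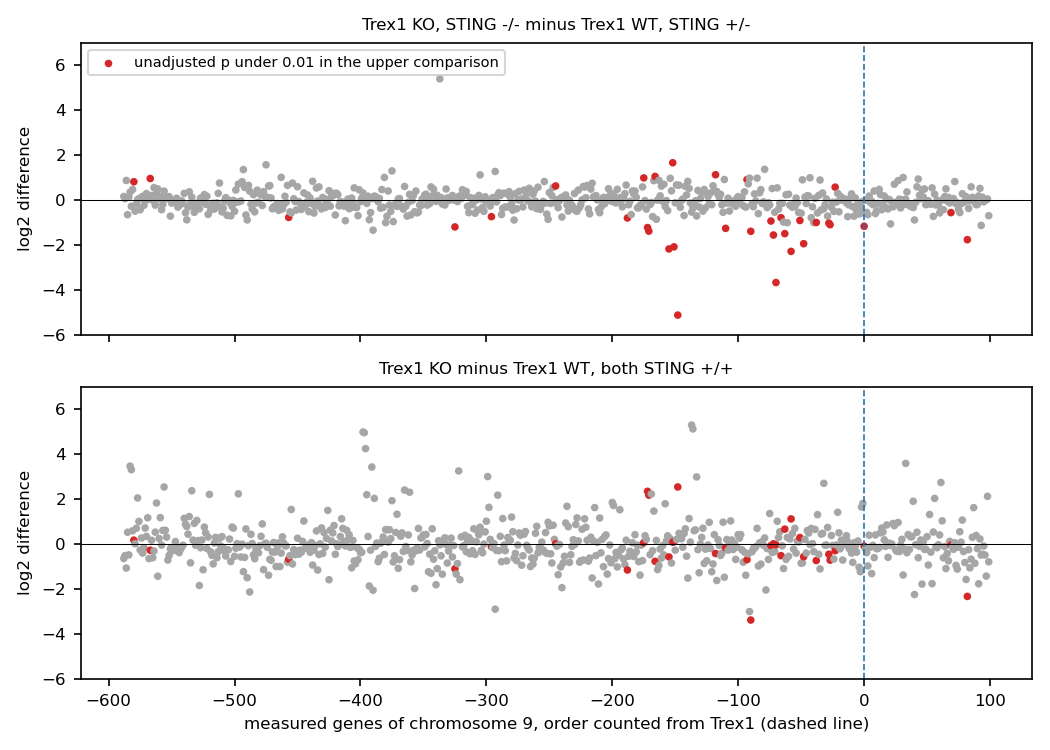
Log2 differences of the measured genes of chromosome 9, placed in gene order counted from Trex1 (dashed line), for double deficient against STING heterozygous hearts (upper panel) and for the reference comparison (lower panel). Red points have an unadjusted p under 0.01 in the upper comparison; 12 of the 14 red points among the 100 genes just left of Trex1 are below 0.

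How far the choice of control mattered was seen by setting the Trex1-intact groups side by side. These comparisons share arrays with the one reported here and are not independent of it. The Trex+/+ STING+/+ arrays carried Xist, and the STING heterozygous and double deficient arrays did not. Trex+/+ STING+/+ against STING heterozygous hearts gave 2 calls (0.0129%), both lower and both on chromosome 9: Lrrc2, at -7.06, and Epm2aip1, at -3.54. The Epm2aip1 value comes from 1 of 5 probes, and the other 4 did not show it: one of them read 6.83 and 6.80 in Trex+/+ STING+/+ against 6.15 and 6.48 in STING heterozygous hearts. Lrrc2 read 11.68 and 11.71 on the STING heterozygous arrays and 11.02 and 10.25 in double deficient hearts, against 4.70 and 4.57 in Trex+/+ STING+/+ hearts. Double deficient against Trex+/+ STING+/+ hearts gave 2 calls (0.0129%), the same 2 features, both higher. Nppa was thus called against STING heterozygous hearts and not against Trex+/+ STING+/+ hearts, and 893 features (5.74%) had an unadjusted p under 0.05 in the latter comparison.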

How the data were processed

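Total RNA from 12 mouse hearts was measured on 1-colour Illumina bead arrays; per the labels' protocols, RNA was extracted with RNeasy Mini, checked on a Bioanalyzer and made into biotinylated cRNA. The deposited intensity table gives a signal per probe on a linear scale and, beside it, a detection score, which rises with the signal and was read as 1 minus the detection p, per the file headers and values. The authors' deposited processed values are log2 and differ by at most 0.0139 from quantile-normalised log2 signals centred per probe, over 5191 bright probes; neither their making nor a genome build is given in the sources used here.

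The signals were corrected and normalised with neqc of limma 3.58.1 (R 4.3.3, offset 16), with negative controls inferred from the detection p. Of 45281 probes, 34885 had 1 gene symbol in the platform annotation, 18 several and 10378 none; symbols were updated to RefSeq. To be kept, a probe had to reach a detection p under 0.05 on 2 or more arrays (22810 did), and the brightest probe stood for each gene, leaving 15561 features. One limma model with 6 group means and empirical Bayes moderation gave each comparison, with Benjamini-Hochberg adjustment over all features. Where a group was not well above background on any array, the fold is a bound from the lowest detected signals. "Without overlap" means that both arrays of a group lay beyond both of the other. Intervals are 95%, and 0 pairs of arrays held identical values. Array number limits the precision; depth has no counterpart here. The procedure was tested on simulated data.

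The gene lists (34 lists, 559 members tested) and the members of each comparison were chosen with earlier results of these data known. Most named genes are members of these lists, the 10 highest and 10 lowest features without overlap, and the targeted genes. Hamp, Mlana, Hnrnpa2b1, Lrrc2, Epm2aip1, Pik3r4, Rpl29, Nmnat3 and Tpbg were named after their values were seen. Alternatives covered normalisation, filters, variance prior, array weights, arrays in the fit, probe choice, tissue covariates and left-out arrays.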

Additional observations from a re-analysis of the deposited data

Results flagged for a closer look

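The double deficient and the reference comparison differed when the difference itself was tested in limma. The former changes both the Trex1 and the STING genotype and the latter Trex1 alone, so this is not a test of Trex1 loss within hearts that lack STING. The double deficient comparison gave a lower value than the reference comparison in 1134 features and a higher value in 718, out of 15561. Among the interferon-stimulated genes 30 of 33 were in the lower class, and among the fibroblast markers 6 of 14 were in the higher class, Pdgfra with an interaction of 2.22.

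A signal of atrial genes was seen in hearts that the comparison did not use. The mean of the atrial list was 9.64 and 10.1 on the 2 arrays labelled Trex+/+ STING-/-, against 7.00 and 6.92 in STING heterozygous hearts. The brown fat gene Ucp1 read 8.16 and 7.72 on the same 2 arrays, while it was not well above background in STING heterozygous or double deficient hearts. The part of tissue content in these values was not tested.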

How the results depend on the processing

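The residual of the genes higher in the reference comparison stayed between -0.10 and 0.049 over 20 alternatives. The medians of the atrial genes (0.12 to 1.91), fat genes (-0.091 to 0.17) and fatty acid oxidation genes (-0.36 to -0.017) also moved. They moved by less than the combined standard deviation of the list medians between arrays of the same compared group (2.22, 1.29 and 0.43). For the atrial genes this is mostly the gap between the 2 double deficient arrays, with list medians of 6.65 and 9.79. Staying within it therefore does not show that the atrial median is stable. The single call of the double deficient comparison became 3 with array quality weights: Nppa and, lower, Ube2cbp and a single probe. With only the compared arrays in the fit it also became 3, all lower: Me1, Wdr82 and a single probe. Nppa missed the threshold there (limma adjusted p = 0.140). The count was 0 with the atrial list mean as a covariate. It was 2 with Trex+/+ STING+/+ hearts or with both STING-carrying Trex1-intact groups as the control. These control groups were chosen after seeing the data. Leaving out 1 array at a time gave 0 to 133 calls: 133 without double deficient replicate 1, 0 without replicate 2, 6 without STING heterozygous replicate 1 and 0 without its replicate 2. A group left with 1 array is assumed to vary like the others. The reference comparison gave 1998 calls with array weights, 1418 with only the compared arrays, and 1659 to 5168 with an array left out. The interaction gave 1161 with only the compared arrays, 781 with the atrial and 1211 with the fat covariate, and 788 to 4382 with an array left out. The median of the interferon-stimulated genes was 0.0081 with the atrial covariate, -0.24 against Trex+/+ STING+/+ hearts, and -0.20 to -0.019 with an array left out. The residual of the genes lower in the reference comparison was 0.17 for genes with a reference difference of at least 2, -0.52 for those taken from Trex-/- STING+/- hearts, where 2 genes were called lower, and -0.17 to 0.22 with an array left out. The causes were not tested. No paired analysis was possible because the labels give no replicate numbers that the groups share.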

Other observations

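Genes of cardiac nerve and conduction tissue had a median difference of 0.81 between double deficient and STING heterozygous hearts, with 8 of 9 above 0 and 0 called. Cntn2, a cell adhesion molecule of the conduction system, read 4.60 and 5.43 in STING heterozygous and 5.86 and 7.49 in double deficient hearts, higher without overlap (1.66 ± 0.59). The gap junction gene Gja5 read 7.02 and 6.84 against 7.11 and 9.25, with replicate 2 the highest array. Without double deficient replicate 2 the median of the list was 0.029. Immediate early genes had a median of -0.26 over 20 members, neutrophil markers one of -0.33 over 5, erythroid markers 0.23 over 7, skeletal muscle markers 0.45 over 8 and liver transcripts -0.47 over 12. B and plasma cell markers stood at 0.073 over 4, endothelial markers at 0.091 over 17, lung epithelium markers at 0.18 over 4, thymus and lymph node markers at 0.17 over 5 and sex-linked genes at -0.19 over 4, and none of these lists held a called gene. Without double deficient replicate 2 the median turned to -0.23 for skeletal muscle, -0.25 for lung epithelium, -0.13 for B and plasma cell and -0.038 for thymus and lymph node markers, and it was -0.83 for liver transcripts, 0.13 for erythroid and 0.16 for endothelial markers.

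The splicing factor gene Hnrnpa2b1 read 8.47 and 11.51 on the STING heterozygous arrays and 11.48 and 11.56 on the double deficient arrays, so that STING heterozygous replicate 1 was the low array of the 4. The same probe read 5.91 on replicate 2 of the arrays labelled Trex-/- STING+/+. The other detected Hnrnpa2b1 probe did not share this, reading 8.37 and 8.28 against 7.69 and 7.79.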
